A study of Mus musculus with 4 samples.

Results

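The 10 genes described here encode the granule proteins and the calprotectin subunits of neutrophils: S100a8, S100a9, Mpo, Prtn3, Ngp, Camp, Ltf, Lcn2, Mmp8 and Mmp9. They were found by gene name, or by current symbol through the RefSeq accession, among the probes of whole-genome mouse arrays. The 10 genes had 12 probes in 21 spots, of 27670 genes and 41174 probes in all. All 12 probes were well above background in both channels of every array.

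Two-colour arrays compared the liver and the spleen of male C57BL/6J mice that had eaten a nucleoprotein diet with those of mice on a control diet low in nucleoprotein. The nucleoprotein mice received a purified diet with 1.2% of a nucleoprotein product and 0.5% nucleic acids, and the control mice the purified diet alone with 0.03% nucleic acids, although the housing notes name a standard chow. The mice were 7 weeks old, ate the diets for 4 weeks, and all of them, controls included, then received 10 mg/kg of lipopolysaccharide, the endotoxin of Gram-negative bacteria. Organs were taken 6 h later, and RNA was pooled by diet. Mice without lipopolysaccharide were not analysed here, and the number of mice in a pool is not given in the sources used here.

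Neutrophils fill their granules while they mature in bone marrow. Myeloblasts and promyelocytes transcribe the genes of primary granules, myelocytes and metamyelocytes those of secondary granules, and the last stages those of tertiary granules. Mature cells that leave the marrow have largely switched off primary granule genes but hold large amounts of S100a8 and S100a9 transcripts, whose products form calprotectin, a calcium-binding and zinc-binding dimer that limits microbial growth and signals through Toll-like receptor 4. Endotoxin draws neutrophils into liver sinusoids and splenic red pulp, and it also switches on some of these genes outside neutrophils, above all Lcn2 in hepatocytes.

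Each organ had 2 arrays, and each array held both diets. On replicate 1 Cy5 marked the nucleoprotein pool and Cy3 the control pool, and replicate 2 had the dyes exchanged. The 2 arrays of an organ were taken as a dye swap of 1 pool per diet, so there was no replicate check of diet and no test was run. A diet ratio is log2 of nucleoprotein over control, given as mean ± SD of the 2 arrays. The SD covers labelling and array error and also holds the dye effect, which is the log2 ratio of Cy5 over Cy3 that remains for a probe once diet is balanced. A gene was called for diet when its ratio passed 1.5-fold, or 0.58 log2 units, with one sign on both arrays. Levels are normalised log2 intensities of single channels. They can be compared for 1 probe across samples, not between probes.

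The probes were 60 bases long, and those of 5 genes are printed because their position decides what they count. The Camp probe (mm7, chr9:109544107-109544166, minus strand) lies in the stretch that encodes the antimicrobial peptide itself. The S100a8 probe (chr3:90800058-90800117, plus strand) covers a calcium-binding loop, the EF hand. The probes of Ngp (chr9:110119702-110120250, plus strand) and Lcn2 (chr2:32392828-32393072, minus strand) span 549 and 245 genomic bases with 60 letters, so each crosses an intron and reads spliced RNA. The brighter Ltf probe (chr9:110738071-110738130, plus strand) lies within 60 contiguous bases. They are written 5′ to 3′ in the direction of the transcript, with no base marked.
S100a8 probe: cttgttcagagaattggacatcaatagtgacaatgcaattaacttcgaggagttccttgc
Camp probe: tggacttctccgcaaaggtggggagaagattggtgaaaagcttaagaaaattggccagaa
Ngp probe: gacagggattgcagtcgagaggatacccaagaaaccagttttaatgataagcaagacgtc
Ltf probe: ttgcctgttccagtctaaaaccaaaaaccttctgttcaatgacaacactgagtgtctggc
Lcn2 probe: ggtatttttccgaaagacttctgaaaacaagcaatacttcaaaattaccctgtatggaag

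Of the other probes, those of Mpo (chr11, 776 genomic bases), Prtn3 (chr10, 817 bases) and the dimmer one of Ltf (chr9, 3051 bases) also cross introns, which makes 5 of the 12 probes. Those of S100a9 (chr3), Mmp8 (chr9) and both of Mmp9 (chr2) match contiguous sequence. Positions come from the scanner files (mouse build mm7), and exons and untranslated regions were not assigned because no annotation of that build was used here.

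The diet comparison asked whether nucleoprotein in the diet altered the neutrophil genes of injected mice. None of the 10 genes was called in either organ (0 of 10 in each). Over all measurable genes 0.323% were called in liver (0.0122% higher and 0.311% lower) and 0.441% in spleen (0.209% higher and 0.232% lower). At a lower bound of 0.32 log2 units the members' count was again 0 of 10 in each organ, against 0.707% of all genes in liver and 0.998% in spleen. The members' ratios lay between -0.06 and 0.27 in liver and between -0.01 and 0.27 in spleen. Their medians were 0.13 and 0.16, against 0.02 and -0.00 over all 16415 and 18141 genes measurable in these organs. On single arrays the members' median was 0.15 and 0.13 in liver and 0.16 and 0.13 in spleen, so after loess it was above 0 with either dye on the nucleoprotein pool. With arrays centred on their median it was 1.09 and -0.50 in liver and 0.82 and -0.52 in spleen, against 1.14, -0.73, 0.53 and -0.55 over all measurable genes, so its sign then followed the dye.

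The mean ratio was above 0 for 9 of the 10 genes in liver and 8 of 10 in spleen. The share of all genes with a mean above 0 is not given here. Their median lay close to 0, at 0.02 in liver (quartiles -0.04 and 0.07) and -0.00 in spleen (quartiles -0.05 and 0.05). The members' ratio was above 0 on both arrays for 6 of 10 in liver, where 20.6% of all genes were, and for 6 of 10 in spleen, where 20.2% of all genes were. No member was below 0 on both arrays of an organ (0 of 10, against 13.5% of all genes in liver and 20% in spleen). S100a8, Ngp, Camp, Ltf and Mmp8 were above 0 on all 4 arrays, which makes 5 of 10, against 5.31% of the 15316 genes measurable in both organs. Ltf is counted there by its brighter probe, and its second probe had -0.21 on liver replicate 2. With all probes of a gene averaged, 5 of 10 members were above 0 on both arrays in liver and 6 of 10 in spleen. These counts hold after loess, which removes the part of the dye bias that goes with intensity. With arrays centred on their median, run for these counts after seeing the data, 0 of 10 members were above 0 on both arrays in liver, in spleen or on all 4 arrays, and of all genes only 3.1%, 2.85% and 0.163% were. After loess the ratios of S100a8, Ngp, Camp, Ltf and Mmp8 stayed under the 1.5-fold bound. The members share pools, arrays and, in part, their source cells, so they do not count as independent observations. In pooled whole-organ RNA, a different number of neutrophils and a different amount of RNA per neutrophil cannot be told apart.

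**Figure D1:**
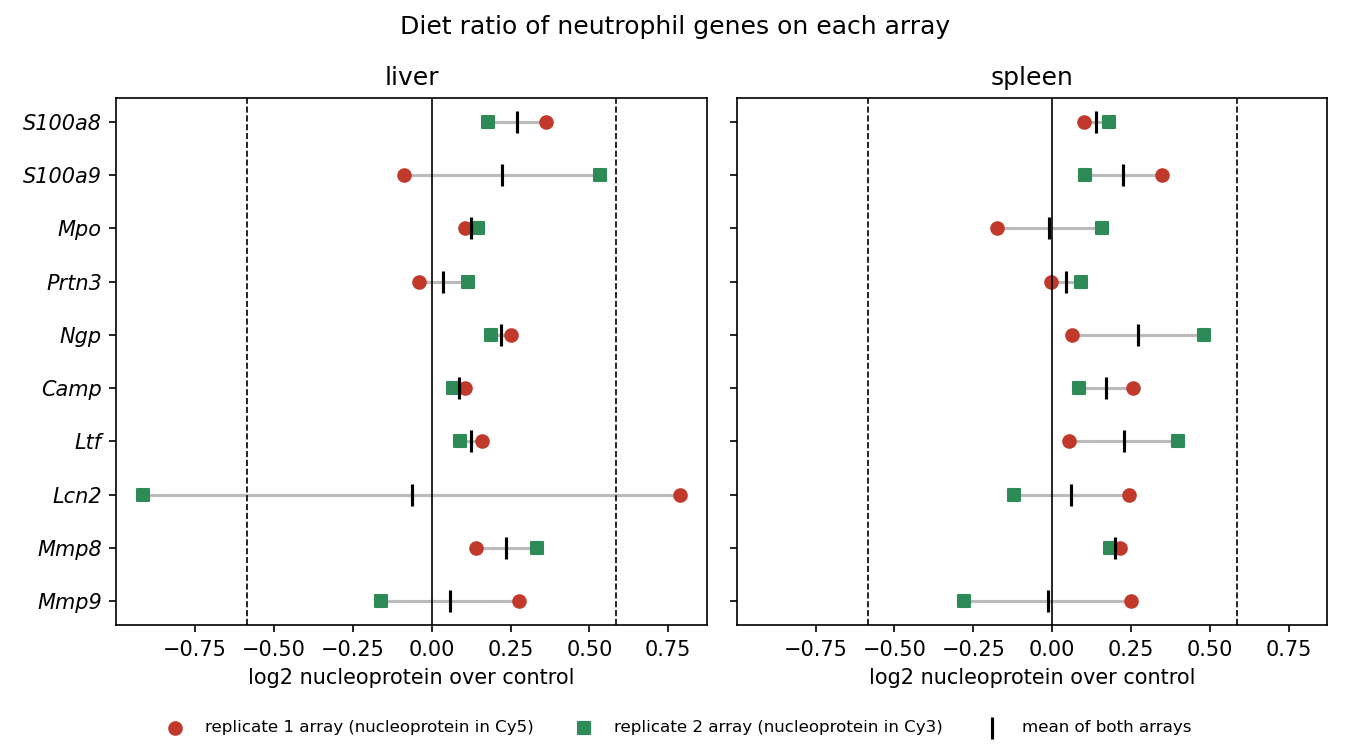
Diet ratio of each gene on each array, with log2 nucleoprotein over control on the horizontal axis, liver at left and spleen at right. Circles are replicate 1 (nucleoprotein in Cy5), squares replicate 2 (nucleoprotein in Cy3), the vertical tick is their mean, and dashed lines mark 1.5-fold (0.58). Both symbols lie right of 0 for 6 genes in each organ, and only Lcn2 in liver passes the dashed lines, once on each side.

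S100a8 encodes the smaller calprotectin subunit. In liver its level was 11.66 and 11.66 in the nucleoprotein channels, against 11.30 and 11.48 in the control channels of replicates 1 and 2. In spleen it was 12.90 and 12.90 with nucleoprotein, against 12.80 and 12.72 in control. Both nucleoprotein values lay above both control values in each organ, and the diet ratio was 0.27 ± 0.13 in liver (1.21-fold) and 0.14 ± 0.06 in spleen. Its dye effect was small beside that, at 0.09 and -0.04.

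S100a9 encodes the partner of S100a8 and lies close to it on chromosome 3. Its liver levels were 14.23 and 14.41 with nucleoprotein and 14.32 and 13.88 in control. Those values overlapped between diets. The ratios of the 2 liver arrays were -0.09 and 0.53, with a mean of 0.22 ± 0.44, and the dye effect of -0.31 was larger than the diet ratio. In spleen its levels were 15.36 and 15.43 with nucleoprotein and 15.01 and 15.32 in control, without overlap, and the ratio was 0.23 ± 0.17. The 2 calprotectin genes thus had liver means of like size, but S100a8 was above 0 on both liver arrays (0.36 and 0.18) and S100a9 on 1 of them. With arrays centred on their median in place of loess, which put the median over all measurable liver genes at 0.17, the liver ratios became 0.59 for S100a8 and 0.63 for S100a9, and neither was called.

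Mpo and Prtn3 are primary granule genes. Myeloperoxidase, the product of Mpo, makes hypochlorous acid from hydrogen peroxide, and Prtn3 encodes proteinase 3, a serine protease. The Mpo level in liver was 7.67 and 7.72 with nucleoprotein, against 7.56 and 7.57 in control. These did not overlap, and the ratio was 0.13 ± 0.03. In spleen Mpo stood at 8.36 and 8.50 with nucleoprotein and 8.54 and 8.35 in control, which overlapped, with ratios of -0.17 and 0.16 on the 2 arrays and a mean of -0.01 ± 0.23. Prtn3 was the dimmest member relative to its own background. Its raw signals ran between 66.9 and 106 with local backgrounds between 43 and 51, and its ratio was 0.04 ± 0.11 in liver and 0.04 ± 0.07 in spleen, within the SD in both organs.

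Ngp, Camp and Ltf are secondary granule genes. Ngp encodes neutrophilic granule protein, a cystatin-like protein, Camp the cathelicidin CRAMP, and Ltf lactoferrin, which binds iron. The Ngp level in liver was 8.41 and 8.47 with nucleoprotein and 8.15 and 8.28 in control, and in spleen 9.16 and 9.61 with nucleoprotein and 9.10 and 9.13 in control. The diets did not overlap in either organ. The Ngp ratio was 0.22 ± 0.04 in liver and 0.27 ± 0.30 in spleen. On the spleen arrays it was 0.06 with nucleoprotein in Cy5 and 0.48 with nucleoprotein in Cy3, a dye effect of -0.21.

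Camp had liver levels of 7.79 and 7.55 with nucleoprotein and 7.68 and 7.49 in control. Its spleen levels were 8.82 and 9.15 with nucleoprotein and 8.56 and 9.07 in control. Within each array the nucleoprotein channel was the brighter one, but across arrays the diets overlapped in both organs. The Camp ratio was 0.09 ± 0.03 in liver and 0.17 ± 0.12 in spleen.

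For Ltf the brighter probe read 8.84 and 8.80 with nucleoprotein and 8.68 and 8.71 in control in liver, and 9.75 and 9.93 with nucleoprotein and 9.69 and 9.53 in control in spleen. Neither organ had an overlap, and the ratios were 0.13 ± 0.05 and 0.23 ± 0.24. The second Ltf probe gave 0.26 and -0.21 on the liver arrays, a mean of 0.02 ± 0.33, and 0.21 ± 0.05 in spleen. The 2 probes of this gene therefore had the same sign on both spleen arrays and on 1 of the liver arrays, and opposite signs on the other.

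Lcn2, Mmp8 and Mmp9 complete the set. Mmp8 encodes neutrophil collagenase of secondary granules. Its level in liver was 8.20 and 8.42 with nucleoprotein and 8.07 and 8.08 in control, and in spleen 9.06 and 9.16 with nucleoprotein and 8.84 and 8.97 in control. No value overlapped between diets, and the ratio was 0.24 ± 0.14 in liver and 0.20 ± 0.02 in spleen, where it had the smallest SD of the 10 genes. Mmp9 encodes gelatinase B, a tertiary granule protease. Its brighter probe gave 0.06 ± 0.31 in liver and -0.01 ± 0.37 in spleen, with the nucleoprotein channel brighter on replicate 1 and dimmer on replicate 2 in each organ, a dye effect of 0.22 and 0.26.

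Both nucleoprotein levels exceeded both control levels for 5 of the 10 genes in liver, namely S100a8, Mpo, Ngp, Ltf and Mmp8, where 10% of all genes did so. In spleen this held for S100a8, S100a9, Ngp, Ltf and Mmp8, which makes 5 of 10, against 10.8% of all genes. The reverse, both nucleoprotein levels below both control levels, occurred for 0 members in either organ, against 6.48% of all genes in liver and 11.8% in spleen. With median centring 0 members were separated in this way in either organ. With that setting only 3.1% of all genes in liver and 2.85% in spleen were above 0 on both arrays. The share of all genes separated is not given for it, so the 0 is not a result about the members.

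**Figure D2:**
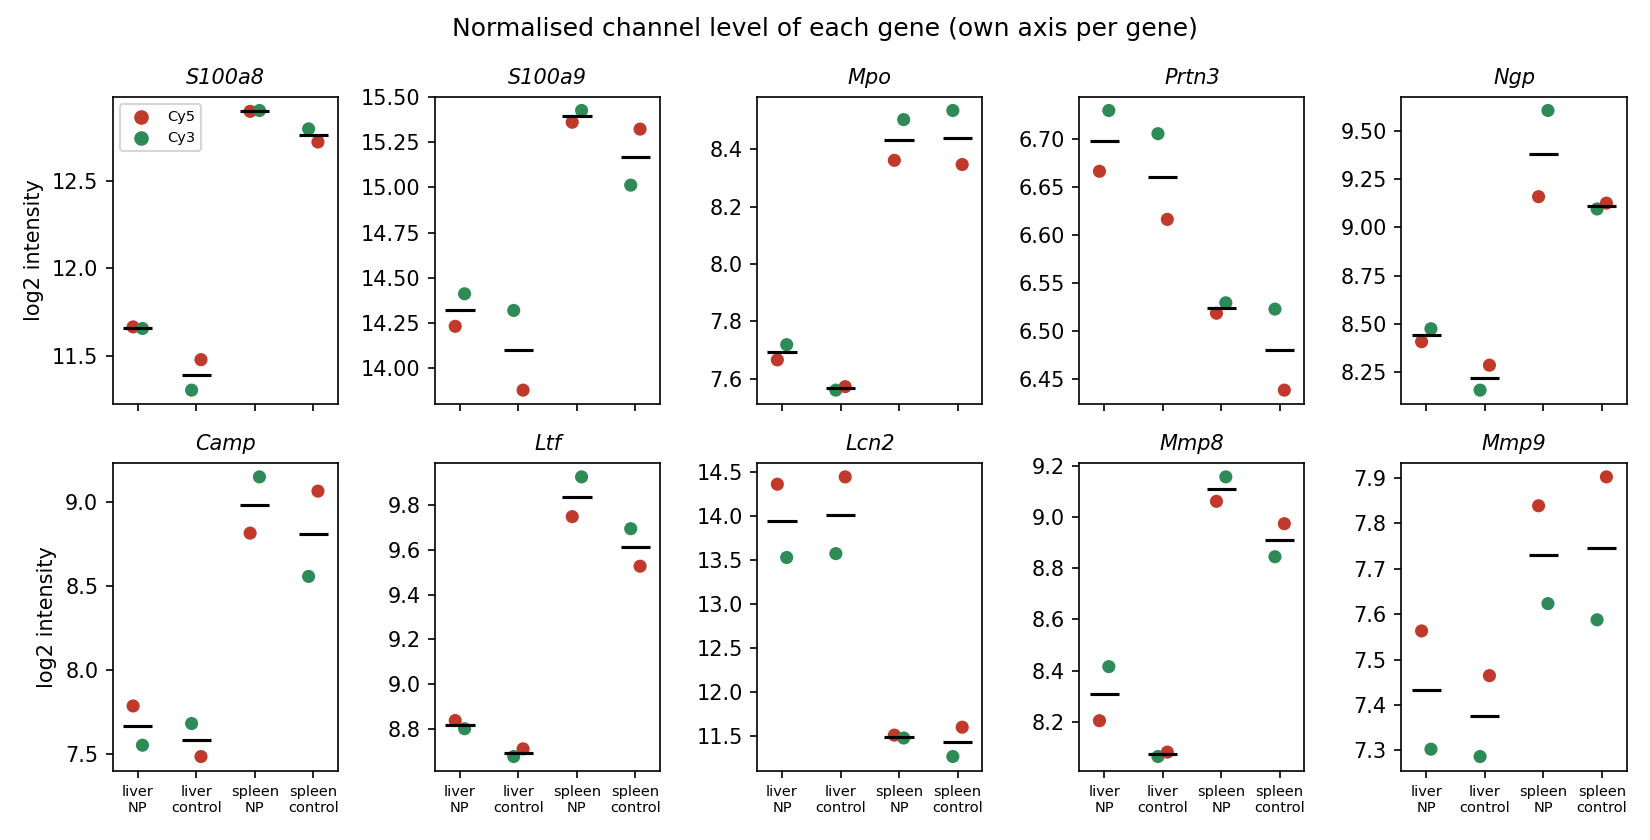
Normalised log2 intensity of each gene in every channel, 1 panel per gene with its own vertical axis. Dots are single channels coloured by dye, black bars are means of 2 channels, and NP stands for the nucleoprotein diet. In 8 of the 10 panels both spleen groups lie above both liver groups, the exceptions being Lcn2 and Prtn3.

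The second Mmp9 probe was printed in 10 spots on each array, which shows the error of a single spot. After outlier spots were left out, 8 of 9 spots were above 0 on liver replicate 1 and 8 of 8 on liver replicate 2, with means of 0.07 ± 0.06 and 0.11 ± 0.07 (SD over spots). In spleen, 10 of 10 spots were above 0 on replicate 1, with a mean of 0.17 ± 0.06, but 2 of 8 on replicate 2, with a mean of -0.06 ± 0.11. The SD over spots was smaller than the SD of 0.17 between the 2 spleen arrays. This probe had a dye effect of -0.02 in liver and 0.12 in spleen, and its diet ratio was 0.09 ± 0.03 in liver and 0.06 ± 0.17 in spleen.

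**Figure D3:**
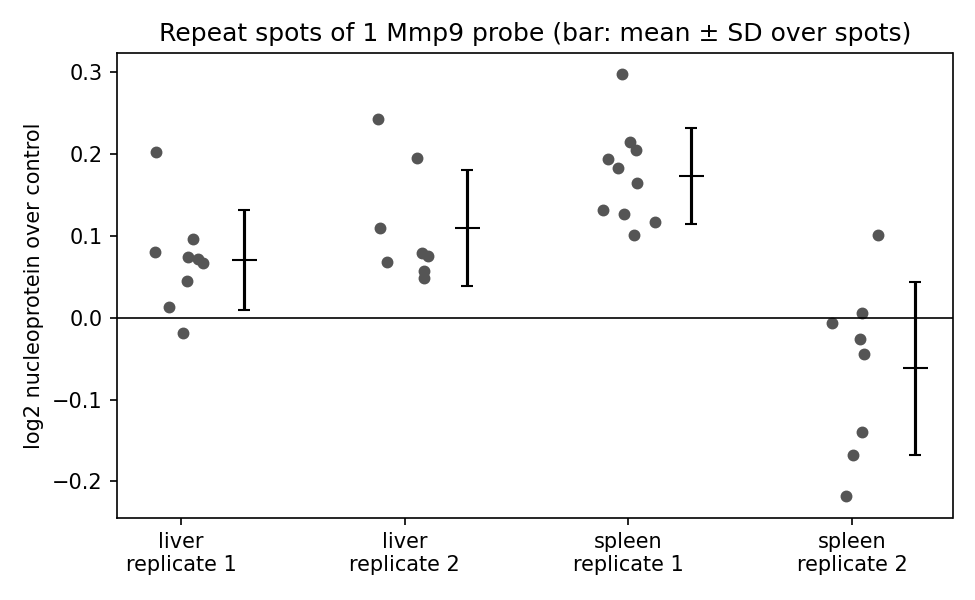
Diet ratio of the repeat spots of 1 Mmp9 probe, with log2 nucleoprotein over control on the vertical axis and the 4 arrays on the horizontal axis. Points are spots, spread sideways for visibility, and bars are mean ± SD over spots. On spleen replicate 1 all 10 spots lie above 0, and on spleen replicate 2 only 2 of 8 do.

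Lcn2 encodes lipocalin 2, which binds bacterial siderophores and so withholds iron. It was the member with the largest difference between dye orientations. In liver its level was 14.36 and 13.53 with nucleoprotein, against 13.57 and 14.44 in control, so that the Cy5 channel was the bright one whichever diet it carried. On liver replicate 1 the raw signal was 39964 with nucleoprotein (Cy5) and 5195 in control (Cy3), and on liver replicate 2 it was 5903 with nucleoprotein (Cy3) and 42191 in control (Cy5). The array ratios were 0.79 and -0.91, each past the 1.5-fold bound with opposite signs, and their mean was -0.06 ± 1.20.

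The Lcn2 dye effect of 0.85 in liver was at percentile 99.9 of the absolute dye effects of all measurable genes, of which 0.816% exceeded 0.58. In spleen it was 0.18, at percentile 89.2, and 0.0386% of all genes exceeded 0.58. The spleen levels of Lcn2 were 11.51 and 11.48 with nucleoprotein and 11.27 and 11.60 in control, which overlapped, and the ratio was 0.06 ± 0.26. Among the 849 liver genes with levels between 13 and 15 the median dye effect was -0.04, with a range of -0.36 to 0.40 between the 5th and 95th percentiles, so Lcn2 lay outside that range while S100a9 at -0.31 lay inside it. The hepatocyte list had a median dye effect of 0.36 in liver and -0.02 in spleen, and its part in the Lcn2 value was not tested. From a single array, Lcn2 would have been called higher in the nucleoprotein liver on replicate 1 and lower on replicate 2.

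The absolute dye effect exceeded the absolute diet ratio for 4 of the 10 genes in liver, S100a9, Prtn3, Lcn2 and Mmp9, where 65.9% of all genes had this. It did so for Mpo, Prtn3, Lcn2 and Mmp9 in spleen, again 4 of 10, against 59.8% of all genes. The median absolute dye effect of the members was 0.08 in liver and 0.14 in spleen, compared with 0.09 and 0.07 over all genes. Its sign was not fixed by the dye, with 6 of the 10 genes brighter in Cy5 in liver and 5 in spleen.

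**Figure D4:**
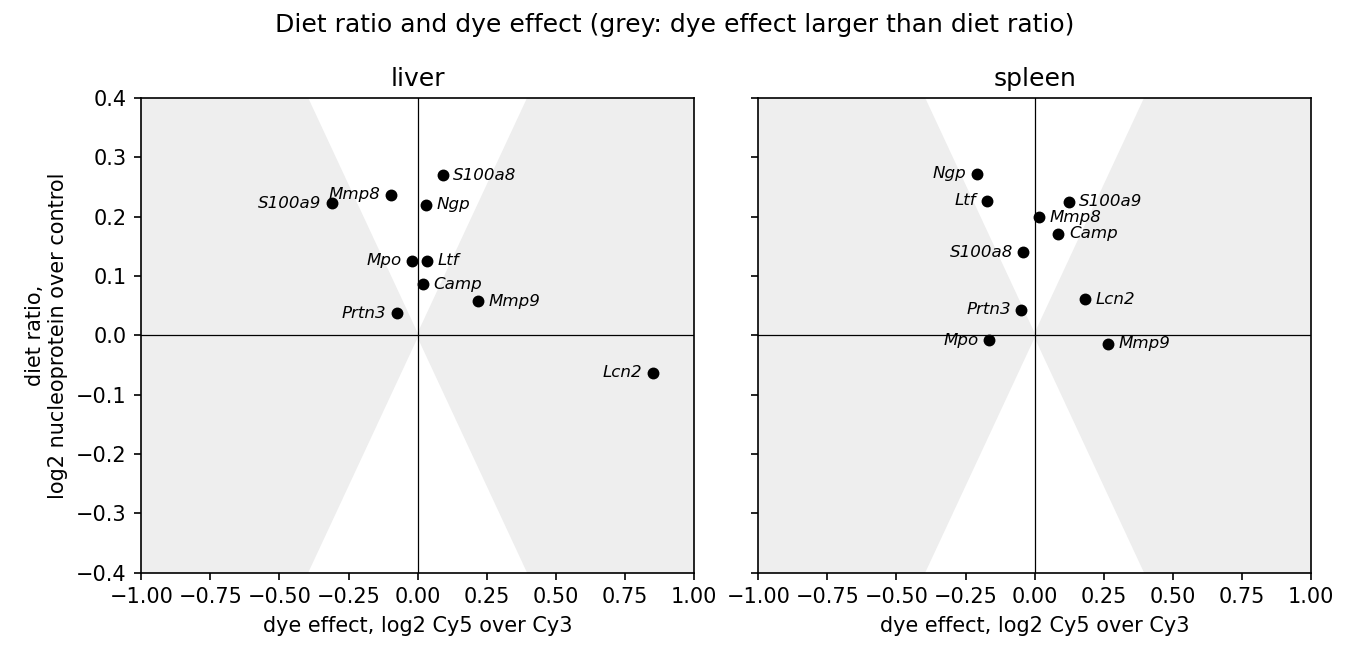
Diet ratio (log2 nucleoprotein over control, mean of 2 arrays) against dye effect (log2 Cy5 over Cy3) for each gene, in liver at left and spleen at right. In the grey area the dye effect is larger than the diet ratio. It holds 4 genes in each organ, and Lcn2 in liver lies farthest from 0 at 0.85.

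The granule genes of immature cells were set against the calprotectin genes of mature ones, as differences between diet ratios. In liver, the mean ratio of Mpo, Prtn3, Ngp, Camp and Ltf was 0.12, against 0.25 for S100a8 and S100a9. The difference was -0.02 on replicate 1 and -0.23 on replicate 2, with a mean of -0.13 ± 0.15. In spleen the 5 granule genes averaged 0.14 and the calprotectin pair 0.18, with differences of -0.18 and 0.10 on the 2 arrays and a mean of -0.04 ± 0.20. Both means were smaller than the spread between the 2 arrays.

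Within the granule genes, Mpo and Prtn3 averaged 0.08 in liver and 0.02 in spleen, whereas Ngp, Camp and Ltf averaged 0.14 and 0.22. Against the calprotectin pair the primary granule genes differed by -0.16 ± 0.09 in liver and -0.17 ± 0.21 in spleen. They were lower on all 4 arrays, but by only -0.02 on spleen replicate 2. Both primary granule probes were dim in liver, and their liver ratios depended on the processing. With offset 10 Mpo had 0.19 and Prtn3 0.09, and with processed signals 0.24 and -0.11. The difference of these 2 genes from the calprotectin pair is not given for those settings, so no order of the groups is drawn. The secondary granule genes differed by -0.10 ± 0.20 and 0.04 ± 0.20, with 1 array on each side of 0 in both organs. With arrays centred on their median, the liver difference of all 5 granule genes from the pair became -0.40.

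The organ comparison used the same probe in liver and spleen in 4 pairs matched for diet and dye. A gene was called when its levels differed by more than 2-fold in the same direction in all 4 pairs. The arrays held the organs named, with 19 of 20 hepatocyte markers called brighter in liver and 11 of 12 B cell markers called brighter in spleen. Lcn2 was the 1 member of 10 called brighter in liver (12.3% of all 19240 genes), and S100a8 the 1 of 10 called brighter in spleen (16.1% of all genes). Of the 10 genes, 8 were dimmer in liver in all 4 pairs (7 with the scanner's processed signals, without S100a9), and the members' median was -0.87, against -0.10 over all genes. The share of all genes dimmer in liver in all 4 pairs is not given here, so the 8 of 10 is a description only.

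S100a8 differed by -1.30 ± 0.13 (SD of 4 pairs, liver minus spleen), or 2.47-fold. The 4 pairs lay between -1.49 and -1.23, all past the bound. The call was lost with median centring, where the pairs lay between -1.84 and -0.88, and with the scanner's processed signals, where they lay between -0.81 and -0.63. S100a9 differed by -1.07 ± 0.31 and Camp by -1.27 ± 0.37, with pairs between -1.44 and -0.69 and between -1.60 and -0.88, so each had pairs on both sides of the bound. From the replicate 2 arrays alone, S100a8, S100a9 and Camp made 3 members past it, and the share of all genes is not given for those arrays. Ltf (-0.97 ± 0.13), Ngp (-0.92 ± 0.16), Mmp8 (-0.82 ± 0.07) and Mpo (-0.81 ± 0.12) lay near the bound without passing it in all pairs. The second Ltf probe gave -0.93 ± 0.24. Mmp9 differed by -0.33 ± 0.07, or by -0.45 ± 0.11 with its second probe.

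Lcn2 went the other way, brighter in liver by 2.51 ± 0.40, or 5.70-fold, with pairs between 2.05 and 2.85. The Cy5 pairs gave 2.85 and 2.84 and the Cy3 pairs 2.05 and 2.30, so the pairs split by dye and not by diet. Prtn3 was slightly brighter in liver, by 0.18 ± 0.02, and by 0.04 with no scaling between arrays, with raw signals near background as given above. Ordered by this difference, S100a8, Camp, S100a9, Ltf, Ngp, Mmp8 and Mpo formed a run in which neighbours differed by less than the larger of their SDs, Mmp9 and Prtn3 stood apart from it, and Lcn2 lay alone.

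**Figure D5:**
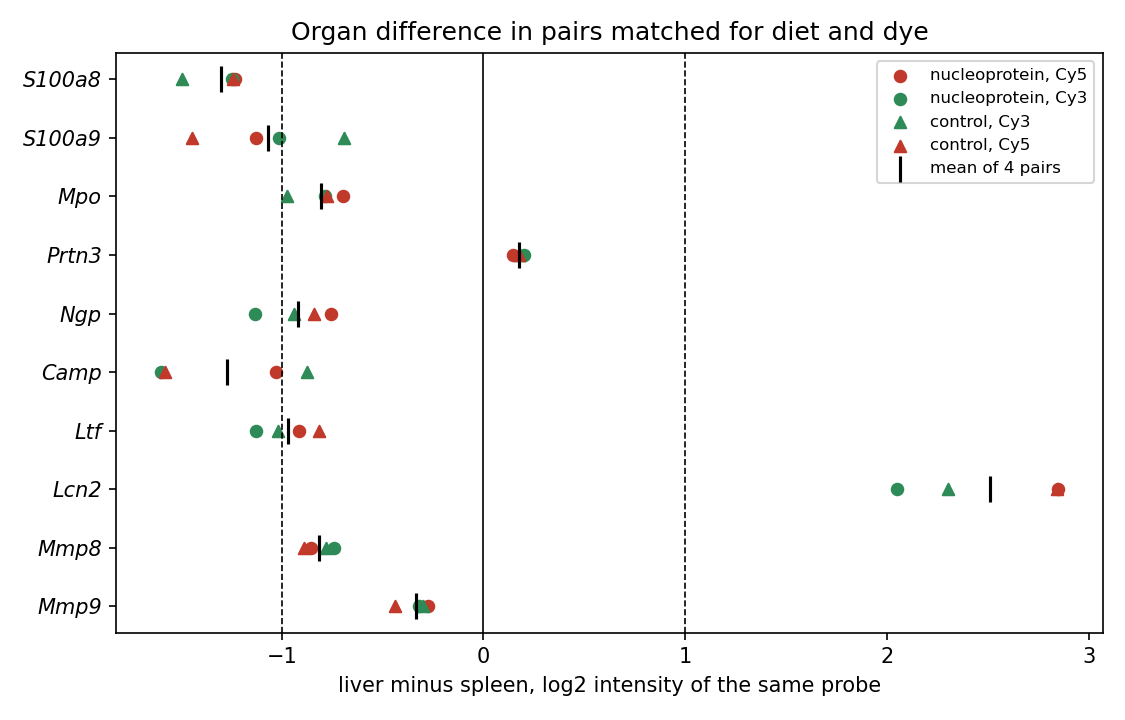
Liver minus spleen difference of log2 intensity for each gene, with 4 pairs matched for diet and dye. Circles are nucleoprotein pairs and triangles control pairs, coloured by dye, the vertical tick is the mean and the dashed lines mark 2-fold. All 4 S100a8 pairs lie left of -1, all 4 Lcn2 pairs right of 1, and Prtn3 lies between 0.15 and 0.20.

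The 5 granule genes of immature cells differed between organs by a mean of -0.76, against -1.19 for the calprotectin pair. The difference between these means was 0.43 ± 0.15 (SD of 4 pairs), with values of 0.53 and 0.24 in the nucleoprotein pairs and 0.37 and 0.58 in the control pairs. Its sign turned with the scanner's processed signals, to -0.51 (pairs between -0.63 and -0.40), and with no scaling between arrays it was 0.09, so no order of the 2 gene groups between organs can be given. Without Prtn3 the 4 other granule genes averaged -0.99. With the processed signals, S100a9 differed by -0.09 and S100a8 by -0.74, while Camp differed by -1.74 and Lcn2 by 3.20. An offset of 10 in place of 50 left S100a8 at -1.32 and S100a9 at -1.07. The dimmer granule genes moved more, Camp to -1.49, Ltf to -1.05, Ngp to -1.03, Mpo to -0.97 and Prtn3 to 0.31. The difference between the group means was then 0.35. With no scaling between arrays the median of all genes moved to -0.44.

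Around the members, 7 lists of related neutrophil genes were read in the same way. In each of them 0 genes were called for diet in either organ. The primary granule list had 8 of 10 genes measurable in liver, with ratios between -0.07 ± 0.14 for Bpi, a bactericidal protein that binds lipopolysaccharide, and 0.32 ± 0.35 for Cd63, a granule membrane tetraspanin. In spleen 7 were measurable, between -0.09 ± 0.08 for Ctsc, the protease that activates granule serine proteases, and 0.05 ± 0.19 for Srgn, the proteoglycan serglycin. Elane, neutrophil elastase, was not measurable in liver and had -0.04 ± 0.00 in spleen.

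In the list of secondary and tertiary granule genes, Chil3, a chitinase-like lectin, had the largest ratio in both organs, 0.26 ± 0.60 in liver and 0.35 ± 0.40 in spleen. The smallest belonged to subunits of the NADPH oxidase that makes superoxide, Cybb at -0.12 ± 0.38 in liver and Cyba at -0.15 ± 0.12 in spleen. After loess, 5 of 19 genes measurable in liver were above 0 on both arrays and 0 below, against 20.6% and 13.5% of all genes. In spleen 9 of 20 were above and 1 below, against 20.2% and 20% of all genes. The list holds 6 of the members, and Ngp, Camp, Ltf and Mmp8 were 4 of those above 0 in each organ. The list medians were 0.06 and 0.07.

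Genes of the surface and cytosol of mature neutrophils numbered 28 measurable in liver, of which 12 were above 0 on both arrays and 0 below, with a median of 0.09. In spleen 7 of 26 were above and 6 below, near the shares over all genes, with a median of 0.01. The shares were 20.6% above and 13.5% below in liver and 20.2% and 20% in spleen. The largest and smallest liver ratios were 0.27 ± 0.13 for Alox5ap, which presents arachidonic acid to 5-lipoxygenase, and -0.25 ± 0.58 for Slpi, an inhibitor of elastase. In spleen they were 0.23 ± 0.17 for S100a9 itself and -0.31 ± 0.13 for Asprv1, an aspartic protease. This list holds S100a8 and S100a9, of which S100a8 was among the 12 in liver and both were among the 7 in spleen.

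Regulators of granulocyte precursors had medians of 0.04 in liver and -0.02 in spleen. C/EBP factors and PU.1 are the transcription factors that drive granule genes. Cebpb had 0.17 ± 0.50 and Cebpa -0.03 ± 0.16 in liver, the list's largest and smallest. In spleen these were Cebpd at 0.13 ± 0.02 and Spi1, which encodes PU.1, at -0.20 ± 0.18. Cebpa was the 1 gene of the list called brighter in liver than in spleen, by 3.96 ± 0.12, while 5 were called brighter in spleen. Gfi1, Myb and Lef1 were not measurable in liver. Which cells gave the liver signal of this list was not tested. Among attractants and growth factors, the cytokine gene Il1b had 0.27 ± 0.09 and the chemokine gene Cxcl1 -0.08 ± 0.21 in liver. The chemokine gene Cxcl3 had 0.30 ± 0.21 and Il17a -0.47 ± 0.13 in spleen, where both Il17a arrays were below 0 and neither passed the bound.

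Receptors and relatives of calprotectin had medians of 0.01 in liver and -0.04 in spleen. The ratio of S100a6, another S100 gene, was 0.22 ± 0.24 in liver, and that of the scavenger receptor gene Cd36 was -0.18 ± 0.15. In spleen the range ran between 0.16 ± 0.21 for Cd14, the lipopolysaccharide co-receptor, and -0.31 ± 0.08 for S100a4. Of the inhibitors of granule proteases, Serpinb1a, which inhibits neutrophil serine proteases, had 0.19 ± 0.07 and Slpi -0.25 ± 0.58 in liver. Serpina1b, an antitrypsin gene of hepatocytes, had 0.63 ± 0.10 in spleen, with 1 array under the bound, and Timp3, an inhibitor of metalloproteases, -0.17 ± 0.15.

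Markers of other cells moved with diet on the same arrays. In spleen 10 of 18 measurable hepatocyte genes were called higher with nucleoprotein, with a median ratio of 0.94 and a summed linear level of 6888 to 7259 with nucleoprotein, against 2399 to 2567 in control. Pancreatic acinar genes were called lower with nucleoprotein, 15 of 15 in liver (median -4.15) and 14 of 15 in spleen (median -1.21). Genes of monocytes and macrophages, cells that also express some members, had 0 called of 17 in liver and of 15 in spleen, with medians of 0.03 and -0.05. The part of these other cells in the members' ratios was not tested.

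Genes with the most similar pattern were sought over the 8 levels (2 organs, 2 diets and 2 dyes), each gene centred on its own mean. The nearest to the mean of S100a8 and S100a9 by root mean square distance were Utp11 (0.06), Ofd1 (0.07), the transcript TC1496629 (0.07), the transcript AK054427 (0.07) and Naa50 (0.08), of 15314 genes searched. Nearest to Ngp, Camp and Ltf were Elp5 (0.07), Zfp692 (0.07), Gemin7 (0.07), the transcript AF055908 (0.07) and Kansl1 (0.07), of 15313. Other members ranked lower, Ltf at place 511, Camp at 709 and Ngp at 1097 from the calprotectin pair, and S100a9 at 449 and Mmp8 at 475 from Ngp, Camp and Ltf. The 5 nearest to the calprotectin pair had organ differences between -1.21 and -1.11. The search used the levels of both organs, so a difference close to that of the pair was set by the selection. All these distances rest on 1 pool per diet and organ.

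The members' promoters were read for short motifs. RefSeq start sites on GRCm38.p6 gave 9 of them, all but that of Mmp9 (7 of genes dimmer in liver, with Lcn2 and Prtn3), each read over the 250 bases before the start. The letters TTNNGCAA, a core of C/EBP sites, occurred on either strand in 5 of the 9, those of S100a9, Ngp, Ltf, Lcn2 and Mmp8, and in 9.56% of the 32851 promoters in the table. This was 1 of 7 motifs counted. GAGGAA, a core of PU.1 sites, was in 6 of 9 (23.3% of all), AGGAAGT, which can overlap it on an ETS site, in 4 (7.69%), CCAAT in 2 (33.8%), an NF-kB core in 1 (17.6%), TGACTCA, an AP-1 site, in 0 (4.46%) and TATAAA in 1 (12.4%). Matches are descriptions of these letters only.

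Printed are the promoters of Ngp (chr9:110419558-110419807, plus strand), S100a9 (chr3:90695722-90695971, minus strand) and Lcn2 (chr2:32387740-32387989, minus strand), with the C/EBP letters in capitals, to show a gene with 2 matches beside a calprotectin gene and the gene with the opposite organ bias. Each reads 5′ to 3′ toward the start. The matches begin 138 and 11 bases before the start in Ngp, 236 bases in S100a9 and 216 bases in Lcn2.
Ngp promoter: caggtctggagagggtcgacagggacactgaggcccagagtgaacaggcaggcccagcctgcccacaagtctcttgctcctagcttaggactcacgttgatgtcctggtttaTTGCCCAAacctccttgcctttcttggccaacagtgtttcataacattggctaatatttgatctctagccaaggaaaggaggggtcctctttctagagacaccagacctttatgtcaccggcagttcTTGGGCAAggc
S100a9 promoter: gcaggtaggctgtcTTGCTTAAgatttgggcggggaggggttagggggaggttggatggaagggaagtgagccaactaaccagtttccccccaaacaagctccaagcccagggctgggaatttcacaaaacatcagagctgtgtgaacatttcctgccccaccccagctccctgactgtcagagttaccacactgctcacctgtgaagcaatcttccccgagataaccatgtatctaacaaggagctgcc
Lcn2 promoter: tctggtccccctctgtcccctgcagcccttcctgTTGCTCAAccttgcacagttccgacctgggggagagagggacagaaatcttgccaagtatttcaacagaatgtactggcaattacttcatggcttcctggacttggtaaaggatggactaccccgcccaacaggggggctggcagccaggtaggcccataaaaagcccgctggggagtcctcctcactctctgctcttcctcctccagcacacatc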

How the data were processed

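Mean and local background intensities of 4 two-colour Agilent arrays, all on 1 slide, were read from the deposited scanner files. The submitters' processing notes name Agilent Feature Extraction 9.5.3.1. Processed intensities and the log10 ratio of red over green, per the file headers background-subtracted and dye-normalised by that software, served as alternatives. The scores in the series value table, deposited by the authors, hold the linear ratio, within 0.02 log2 of the processed signals for 99.8% to 100% of spots well above background, with a minus sign on every replicate 1 value, and its sign was turned.

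Background was corrected with normexp (offset 50), ratios were normalised by loess within arrays, and channel levels were scaled by Aquantile (limma 3.58.1, R 4.3.3). Control spots had no weight in loess, and 189 to 354 outlier gene spots per array, of 43379, were left out. There were 0 saturated spots. Between 55.2% and 72.8% of gene spots per channel were well above background, and the number of arrays limits the precision. Names came from RefSeq accessions (22951 probes), symbols (9768) or the files (8455). The brightest probe represented a gene. It was measurable where well above background on both arrays in at least 1 diet, with a ratio on both. No probe was found by these names for 10 listed genes. The steps were tested on simulated data.

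The members and the gene lists were chosen with earlier results of these data known. All members were named. From each list the largest and smallest diet ratio per organ were named, plus genes called, and the 5 nearest patterns. The labels do not say whether replicates 1 and 2 were the same pools, and they were counted as 1. Alternatives were another offset, processed signals, median centring, no scaling, other bounds, all probes of a gene, no filter on dim probes, the value table and single arrays.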

Additional observations from a re-analysis of the deposited data

How the results depend on the processing

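No paired analysis was possible because no result comes from a test, and the replicate numbers mark dye orientation. No member was called for diet in either organ under any alternative that kept both arrays of the dye swap (another offset, processed signals, median centring, all probes of a gene, a lower bound, no filter on dim probes), with 0 of 10 each time. On either single array 1 member was called in liver, Lcn2 both times with opposite signs, at -0.91 without replicate 1 and 0.79 without replicate 2, and 0 in spleen. The difference of granule genes from S100a8 and S100a9 in liver was -0.40 with median centring, against -0.13, and -0.23 to -0.02 on single arrays. In spleen it was -0.18 to 0.10 on single arrays. Members called brighter in spleen numbered 1, but 2 with offset 10, 3 with processed signals, 0 with median centring, 6 with no scaling, 7 with a 1.5-fold bound, and 1 to 3 on single replicates. With processed signals these were Mpo, Camp and Ltf, without S100a8. The share of all genes called brighter in spleen, 16.1% in the main setting, is not given for these alternatives. With no scaling the median of all genes was -0.44, against -0.10 in the main setting. Lcn2 was the 1 member brighter in liver in every setting run. Of the members' diet ratios, 6 of 20 moved by more than the SD of the main arrays with processed signals, 6 with the value table, 5 with median centring, 3 with offset 10 and 1 with all probes averaged. The causes were not tested. Chosen after seeing the data, the same settings were run on the members above 0 on every array, 6 in liver, 6 in spleen and 5 in both organs, which became 0 in each with median centring and kept these counts with offset 10, processed signals and the value table. With all probes of a gene averaged, the counts were 5 in liver and 6 in spleen. The organ contrast of granule genes with S100a8 and S100a9, 0.43, was 0.35 with offset 10, 0.43 with median centring, 0.09 with no scaling and -0.51 with processed signals. Prtn3 and Mmp9 were the members nearest to background.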

Other observations

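A probe outside the set, described in the files as the gene for the light and heavy chains of myeloperoxidase and named there only by its accession-like label, lay on chromosome 11 (87867198 to 87867257, mm7), upstream of the Mpo probe used above. With levels scaled between arrays it was brighter in liver than in spleen in all 4 matched pairs. The difference was 1.04 ± 0.03, with pairs between 1.00 and 1.07. The spliced Mpo probe was dimmer in liver by -0.81 ± 0.12 in the same setting. The diet ratio of the probe outside the set was 0.02 ± 0.17 in liver and -0.02 ± 0.18 in spleen. The probe was dim, with raw signals between 120.7 and 276.4 in liver and between 94.2 and 194.9 in spleen. Local backgrounds were between 43 and 55. Its organ difference is not given for any other setting. With no scaling between arrays the Mpo probe moved to -1.51 and the median of all genes to -0.44. Of all genes, 12.3% were called brighter in liver. The size of the organ difference of this probe is therefore a description of the main setting only. What the probe binds was not tested, and it was chosen after its values were seen.

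Retnlg, a neutrophil resistin-like gene outside the naming rule and chosen after its values were seen, had diet ratios of 0.31 and 0.21 on the liver arrays and 0.20 and 0.21 on the spleen arrays. It was dimmer in liver than in spleen by -0.94 ± 0.11, near the values of Ngp and Ltf. Cxcr2, the chemokine receptor of mature neutrophils, had 0.13 ± 0.12 in liver and 0.03 ± 0.05 in spleen, and differed between organs by -0.81 ± 0.08.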
